A study of Mus musculus with 6 samples.

Results

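The genes described here are 10 cytoskeleton and growth cone genes of maturing neurons, chosen by symbol: the stathmins *Stmn1*, *Stmn2*, *Stmn3* and *Stmn4*, the growth cone genes *Gap43* and *Dpysl3*, the intermediate filament genes *Prph* and *Nefl*, and the beta tubulins *Tubb3* and *Tubb2b*. They are 10 of the 24564 genes listed in every library, and all 10 were found. They were followed along the neuron lineage of the mouse main olfactory epithelium (MOE), from precursors with *Neurod1* over immature olfactory sensory neurons (OSNs) with *Gap43* to mature OSNs with *Omp*, in 6 single-cell RNA-seq libraries.

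The study asked whether HP1α (gene *Cbx5*) can stand in for HP1β (gene *Cbx1*) in OSNs, and in swap mice a Cre allele active in the neuronal lineage exchanges the *Cbx1* coding sequence for that of *Cbx5* under the *Cbx1* promoter. Of the 2 swap libraries both carry Cbx*/* and the Cre. Of the 2 control libraries, control 1 is labelled WT with the Cre and control 2 is labelled Cbx*/* without it, so by the labels the controls do not share a genotype, while the study's text describes its controls as floxed for the allele. The remaining 2 libraries belong to another line and were not replicated: 1 from gg8-tTA; tetOP2iresGFP (*tetOP2*, in which the gg8-tTA driver expresses an olfactory receptor transgene) and 1 from gg8-tTA alone (*gg8tTA*). The labels give no age and do not say how many animals went into a library.

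Stathmins bind tubulin dimers and destabilize microtubules, which keeps the cytoskeleton of a growing axon dynamic. GAP43 is a membrane protein of growth cones, DPYSL3 (CRMP4) belongs to the collapsin response mediators that couple guidance cues to the cytoskeleton, peripherin and NF-L form intermediate filaments, and the class III beta tubulin TUBB3 is the tubulin by which neurons are usually recognized. In the olfactory epithelium neurons are made throughout life, and *Gap43* in axon-growing immature OSNs against *Omp* in mature OSNs is the textbook pair of markers for that step.

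Promoter sequence was available in the RefSeq table (GRCm38.p6) for 3 of the 10 members. Those of *Stmn3* and *Prph* are shown because these genes lie at the ends of the order of mean falls found below. *Prph* had the earliest mean fall and *Stmn3* the latest, but the first place was not settled between *Prph* and *Dpysl3*. Both windows end at the base before the annotated gene start, chr2:181314501-181314750 on the minus strand for *Stmn3* and chr15:99054924-99055173 on the plus strand for *Prph*, and capitals mark the only motif found in each.
Stmn3: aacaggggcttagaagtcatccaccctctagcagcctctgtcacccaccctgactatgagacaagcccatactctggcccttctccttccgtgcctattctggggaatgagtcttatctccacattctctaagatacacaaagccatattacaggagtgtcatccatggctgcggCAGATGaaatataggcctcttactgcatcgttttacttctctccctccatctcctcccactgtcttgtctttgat
Prph: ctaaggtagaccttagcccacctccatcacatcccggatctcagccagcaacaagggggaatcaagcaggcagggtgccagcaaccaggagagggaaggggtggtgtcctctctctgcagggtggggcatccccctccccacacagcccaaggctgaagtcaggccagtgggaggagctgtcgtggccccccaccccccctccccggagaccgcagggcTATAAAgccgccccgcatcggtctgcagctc
The 4 motifs searched on both strands were the EBF-type CCCNNGGG, the E-box CAGNTG, the homeodomain-type TAATNA and the TATA motif TATAAA, which stood in 11.8%, 44.8%, 24.3% and 12.4% of 32851 promoter windows of this length. The *Stmn3* window has 48.8% GC and holds an E-box 75 to 70 bases before the start, and the *Prph* window has 65.2% GC and holds a TATA motif 31 to 26 bases before it.

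The members lie on 9 chromosomes (GRCm38, GENCODE M21), and several share their position with another gene. *Stmn1* is at chr4:134468320-134473843 and *Stmn2* at chr3:8509360-8561606, both on the plus strand, and *Stmn3* is at chr2:181306459-181314500 on the minus strand. *Tubb3* (chr8:123411424-123422015, plus strand) overlaps the annotated gene *Gm20388*, which the files do not list. *Nefl* (chr14:68083863-68089095, plus strand) overlaps *Nefm* on the other strand. The strand setting of the counting is not given in the sources used, so whether reads in the overlap were told apart is not known. *Gap43* (chr16:42248442-42340651, minus strand) holds the microRNA gene *Mir6540*, and *Tubb2b* (chr13:34126748-34130466, minus strand) has a near-identical paralog, *Tubb2a*, with which reads may be shared. *Stmn4* (chr14:66344296-66361680, plus strand) and *Prph* (chr15:99055174-99058978, plus strand) overlap no other annotated gene.

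Library depth was 58498968 to 63277934 UMIs in the swap and control libraries and 32005196 and 35298494 UMIs in the other line. Sustentacular, basal, glial and blood cells were present in the files although the labels give the cell type as OSN, and the neuron lineage made up 1260 to 2211 cells per library. These held 124 to 275 cells resembling immediate neuronal precursors (INP), 289 to 931 resembling immature OSNs and 610 to 1219 resembling mature OSNs. Mature OSNs were 40.4% of the lineage in swap 1 and 50.3% in control 1, and 64.5% in swap 2 and 73.9% in control 2, so libraries with the same replicate number were closer in this share than those of the same genotype. As a check of the labels, *Cbx1* in mature OSNs was at 0.97 and 3.22 CPM in swap and 81.4 and 155 CPM in control libraries, and *Cbx5* at 73.8 and 88.4 against 18.9 and 28.8 CPM. CPM are the UMIs of a gene as a share of all UMIs summed over the cells of a stage in 1 library, scaled to a common total. Stages were named without any of the 10 members among the genes used. Some stage clusters had more markers of a neighbouring stage than of their own among their 10 leading genes, and without those clusters no member's log2 difference between mature and immature OSNs changed sign.

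Most members were highest in immature OSNs, and their levels there and in mature OSNs are given first. *Gap43* was at 2199 and 2296 CPM in immature OSNs of swap 1 and swap 2, 2399 and 2542 CPM in control 1 and control 2, and 2086 and 1996 CPM in *tetOP2* and *gg8tTA*. In mature OSNs it was at 356, 203, 276, 199.7, 237 and 334 CPM in the same order. Every library thus had more *Gap43* in immature OSNs than any library had in mature OSNs, and INP cells were lower still, with 72.7 to 161 CPM. Mature minus immature, the log2 level was -3.10 ± 0.44 (SD, n = 6 libraries).

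Of the 10 members, *Dpysl3* had the largest such difference. Its level was 1362, 1369.5, 1350.1, 1192, 1511 and 1215 CPM in immature OSNs and 87.2, 46.0, 64.2, 42.9, 67.3 and 70.03 CPM in mature OSNs of swap 1, swap 2, control 1, control 2, *tetOP2* and *gg8tTA*, a log2 difference of -4.42 ± 0.36 (SD, n = 6). INP cells already held 677 to 1091 CPM, a stage in which *Gap43* was still low. The immature and mature values did not overlap.

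The stathmins had different profiles. *Stmn1*, the ubiquitous member that dividing cells also use, was at 1747 to 2470.1 CPM in cells resembling globose basal cells, the dividing progenitors, at 3114 to 3926 CPM in INP cells, at 4575 to 6061 CPM in immature OSNs and at 254 to 523 CPM in mature OSNs. The neuronal *Stmn2* (SCG10) was at 27.6 to 73.0 CPM in basal cells and 1623 to 2995 CPM in INP cells, with 3311 to 4174 CPM in immature and 644 to 1103 CPM in mature OSNs. Both genes were lower in mature than in immature OSNs of every library, by -3.74 ± 0.37 for *Stmn1* and -2.10 ± 0.27 for *Stmn2* (log2, SD, n = 6).

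*Stmn3* (SCLIP) was kept in mature OSNs. Its level was 1769, 1312, 1871, 1539, 1618 and 1595 CPM in immature and 1162, 795, 1199, 849.6, 1056 and 1155 CPM in mature OSNs of swap 1, swap 2, control 1, control 2, *tetOP2* and *gg8tTA*. The ranges did not overlap, yet the log2 difference was only -0.65 ± 0.13 (SD, n = 6). *Stmn4* (RB3) went the other way, with 301, 176, 227, 214, 302 and 275 CPM in immature and 548, 524, 543, 488, 665 and 607 CPM in mature OSNs. It was higher in mature OSNs of all 6 libraries, by 1.19 ± 0.23 (log2, SD), and it was the only stathmin with its highest level in that stage.

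The tubulins differed in the stage with the highest mean and in how far they fell. *Tubb3* was as high in INP cells as later, with 1768, 1129.8, 1588, 1112, 2831 and 2769.7 CPM, against 1477, 887, 1306, 893, 2579 and 2354 CPM in immature OSNs. INP was the higher stage within every library, but the ranges over libraries overlapped, and the *tetOP2* and *gg8tTA* libraries were above the other 4 in both stages. Mature OSNs held 358 to 837 CPM, a log2 difference to immature OSNs of -1.28 ± 0.30 (SD, n = 6). *Tubb2b* was at 1548 to 2389 CPM in INP cells, 1887 to 3644 CPM in immature and 109 to 287 CPM in mature OSNs, a difference of -3.77 ± 0.30.

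The intermediate filament genes moved in opposite directions. *Prph* was at 362, 281, 321, 296, 406 and 390.4 CPM in immature OSNs and at 63.2, 14.2, 33.8, 14.0, 113 and 134 CPM in mature OSNs of swap 1, swap 2, control 1, control 2, *tetOP2* and *gg8tTA*. It was the member whose mature level spread most between libraries, with a log2 difference of -2.93 ± 1.18 (SD, n = 6). *Nefl* was scarce throughout the lineage. It was at 4.13, 2.74, 5.44, 5.66, 3.90 and 3.25 CPM in immature and 20.1, 18.1, 16.3, 14.3, 15.2 and 9.36 CPM in mature OSNs, a log2 difference of 1.67 ± 0.46. In INP cells *Nefl* had at most 0.751 CPM and was at 0 in the *tetOP2* and *gg8tTA* libraries.

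**Figure D1:**
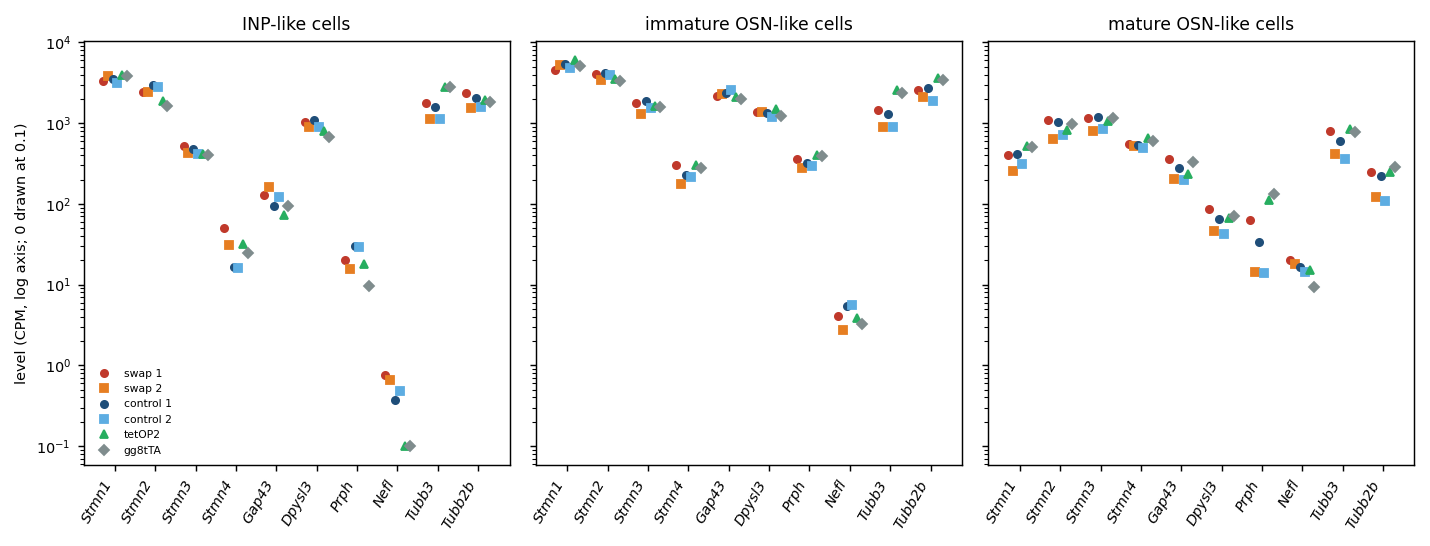
Level of each member (CPM, log axis, 0 drawn at 0.1) in cells resembling INP, immature OSNs and mature OSNs, with 1 point per library for 2 swap, 2 control, 1 *tetOP2* and 1 *gg8tTA* library. *Dpysl3*, *Gap43*, *Stmn1* and *Tubb2b* lie far lower in the mature panel than in the immature one, and *Stmn4* and *Nefl* lie higher.

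Read against other genes, 8 of the 9 members with a mean of at least 20 CPM were lower in mature than in immature OSNs of all 6 libraries and 1, *Stmn4*, was higher, while over 6347 genes at that level 42.9% were lower and 32.3% higher in all 6. Past a mean 2-fold difference as well, 7 members were lower and 1 was higher, against 7.45% and 8.68% of all genes. Since the cells were clustered by their expression, these are counts without a test. The members were also chosen as genes of maturing neurons, with earlier results of these data known. That choice partly sets their excess over other genes. Among 55 other cytoskeleton genes 46 reached 20 CPM, of which 32 were lower and 9 higher in all 6 libraries, with a median log2 difference of -0.82 against -2.93 for the 9 members and -0.09 for all genes. All 3 growth cone substrates of that list and all 3 measured collapsin response mediators were lower. Kinesins, the axonal transport motors, had a median near 0, at -0.09, with 3 of 8 lower and 2 of 8 higher.

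Outside the lineage the members were not all neuron-restricted. Over 11 cell types with enough cells, the highest mean was in immature OSNs for *Stmn1*, *Stmn2*, *Stmn3*, *Gap43*, *Dpysl3*, *Prph* and *Tubb2b*, in INP cells for *Tubb3*, and in mature OSNs for *Stmn4* and *Nefl*. After immature OSNs and INP cells, *Dpysl3* was next highest in fibroblasts with 215 ± 15.4 CPM, and *Tubb2b* in sustentacular cells with 328 ± 70.7 CPM (SD, n = 6), both above mature OSNs. The first and second types in each order overlapped between libraries only for *Tubb3*, and for *Tubb2b*.

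Shares of cells with at least 1 UMI were taken after thinning each cell to 3000 UMIs, since depth differed between stages. *Gap43* was seen in 24.0% of INP cells, 93.6% of immature and 32.1% of mature OSNs (means of 6 libraries), against 6.34% of sustentacular cells, a type that should lack it. *Prph* was seen in 4.93%, 55.5% and 12.4%, against 2.07%, and *Nefl* in 0%, 1.24% and 3.57%, against 0.162%. *Dpysl3* in mature OSNs, with 14.4%, was below its share of 28.3% in sustentacular cells. *Tubb2b* was also below, with 37.0% against 52.5%. Sustentacular cells held more of both genes than mature OSNs in level as well, with 135 against 62.9 CPM for *Dpysl3*. They thus do not serve as a background for these genes. In cells resembling horizontal basal cells the share was 5.42% for *Tubb2b* and 20.7% for *Dpysl3*. The mature share of *Dpysl3* is therefore not read either way. Unthinned, *Gap43* was seen in 96.9% to 99.3% of immature and 39.0% to 60.6% of mature OSNs.

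To place the members in order, lineage cells were put into 12 bins by a maturation score made from 10 mature and 10 precursor genes, none of them members. *Neurod1* was highest in bin 1 and *Omp* in bin 12 of every library, as the score fixes, since both are among its genes. *Gap43* was at 4.26% of its own highest level in bin 1, 99.5% in bin 5, 23.6% in bin 7 and 1.33% in bin 12 (means of 6 libraries). *Stmn4* was at 3.44%, 44.5%, 95.2% and 65.4% in the same bins. It was thus near its highest level in bin 7, where *Gap43* had dropped to 23.6% of its own, and was lower again in the last bin. In bin 7 a mean of 63.3% of cells still held *Gap43* UMIs (53.3% to 83.0% over libraries, thinned). *Tubb3* was at 99.2%, 78.6%, 34.6% and 27.5% and thus levelled off from bin 7 on rather than disappearing.

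**Figure D2:**
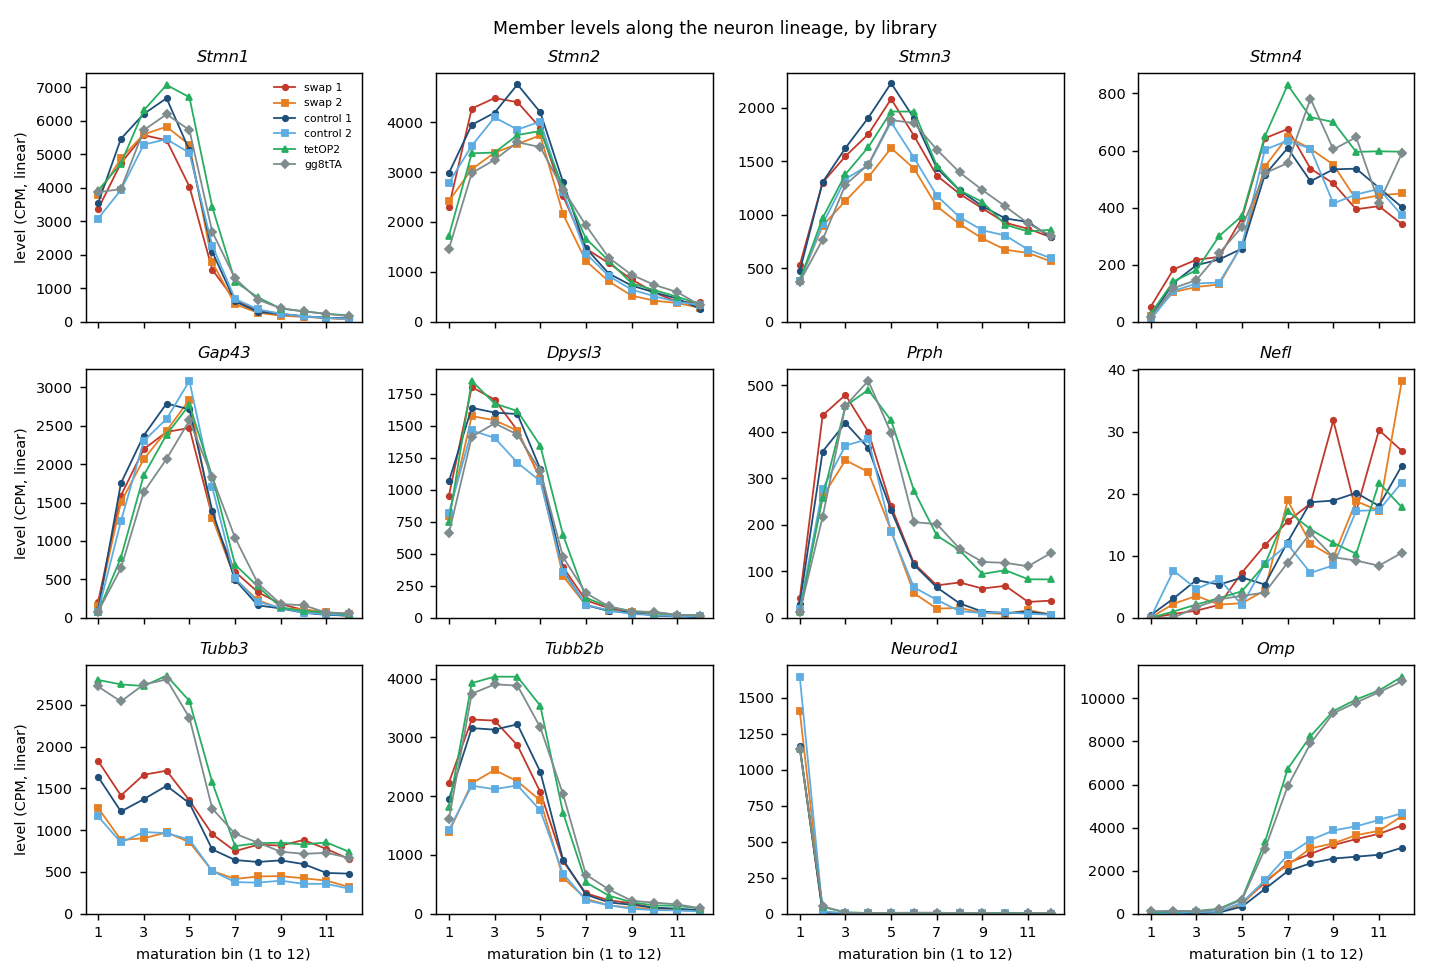
Level of each member (CPM, linear axis from 0) over 12 bins of the maturation score, with 1 line per library. *Dpysl3*, *Tubb2b*, *Stmn1* and *Prph* drop between bins 4 and 7, *Stmn3* keeps 37.8% of its highest level in bin 12, and *Stmn4* peaks in bin 7 or 8.

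The share of cells with both *Gap43* and *Omp* UMIs was largest in bin 6, at 83.7% (71.7% to 97.6% over the 6 libraries, thinned). It was 23.3% in bin 4 and 25.2% in bin 9. In every library most cells of bin 6 thus held UMIs of both genes. *Omp* itself was seen in 1.27% to 5.41% of the cells of bin 1 in the swap and control libraries and in 23.9% and 25.2% in *tetOP2* and *gg8tTA*. In sustentacular cells, which should lack it, it was seen in 5.80% to 26.8% in the swap and control libraries and in 32.6% and 29.3% in the other 2, so low shares of cells with both genes are not read as expression of both.

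The fall position of a member was taken as the bin at which its level last dropped through 50% of its highest level, interpolated between bins. The mean over 6 libraries was 5.39 for *Prph*, 5.46 for *Dpysl3*, 5.66 for *Tubb2b*, 5.74 for *Stmn1*, 5.93 for *Tubb3*, 6.21 for *Gap43*, 6.55 for *Stmn2* and 9.25 for *Stmn3*. The SDs were 0.12 to 0.53 bins, and 0.89 for *Stmn3*. *Stmn4* and *Nefl* had no fall, and passed 50% upwards at 5.13 ± 0.17 and 7.46 ± 1.80, against 6.72 ± 0.18 for *Omp*. The wide spread for *Nefl* came from swap 2, with 11.1 against 6.27 to 7.13 in the other 5 libraries, where few UMIs were behind each bin.

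The rise through 50% of the highest level could be placed for few members, because most were already above it in bin 1. It was at 1.74 ± 0.26 bins for *Prph*, 1.95 ± 0.24 for *Stmn3* and 2.16 ± 0.39 for *Gap43* (SD, n = 6), in this order within 6 of 6 libraries. *Stmn1* and *Tubb3* had no rise in any library, and *Stmn2*, *Dpysl3* and *Tubb2b* had one only in *tetOP2* and *gg8tTA*, at 1.10 to 1.22 bins. From rise to fall, *Prph* and *Gap43* thus spanned fewer bins than *Stmn3*, the only other member with both positions in every library.

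On the fall, *Stmn3* was last in 6 of 6 libraries and *Stmn2* second to last in 6 of 6. The first place was less settled, with *Prph* first in 4 libraries and *Dpysl3* in 2. For *Prph* the libraries were at 4.999 and 5.13 in swap, 5.18 and 4.96 in control, 6.30 in *tetOP2* and 5.74 in *gg8tTA*, so it fell early in the first 4 and later in the other line. For *Dpysl3* they were at 5.27, 5.39, 5.43, 5.47, 5.60 and 5.58, a far narrower range. The later fall in the other line was not particular to *Prph*. Both *tetOP2* and *gg8tTA* were later than every swap and control library for *Dpysl3*, *Tubb2b*, *Stmn1*, *Gap43*, *Stmn2* and *Stmn3* too, and not for *Tubb3*. *Gap43*, for example, fell at 6.39 and 6.69 bins there, against at most 6.13 in the swap and control libraries. The fall of *Gap43*, *Dpysl3*, *Prph*, *Stmn1*, *Tubb3* and *Tubb2b* came before the rise of *Omp* in 6 of 6 libraries. That of *Stmn2* did so in 4 and that of *Stmn3* in 0. This order depended on the level chosen. At 30% of the highest level *Omp* rose at a mean of 5.89 bins. The mean falls came later, from 5.93 for *Dpysl3* to 9.65 for *Tubb3*, and *Stmn3* had no fall. At 70% *Omp* rose at 7.92, after the mean falls of all these members, with *Stmn3* the latest at 7.13. *Omp* is also among the genes of the score, which partly sets where it rises.

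Neighbours in this order were compared within libraries by an exact two-sided sign-flip permutation test over the 6 libraries, adjusted over 7 pairs. *Dpysl3* fell before *Tubb2b* in 6 of 6 libraries, by 0.20 ± 0.15 bins. *Gap43* fell before *Stmn2* in 6 of 6, by 0.34 ± 0.12 bins, and *Stmn2* before *Stmn3* in 6 of 6, by 2.70 ± 0.58 bins (SD). Each of these 3 pairs had an exact permutation p of 0.03125, the smallest that 6 libraries allow, and an adjusted p of 0.0729, so none passed 0.05. With 3 of 7 pairs at the smallest p, none could pass after adjustment, whatever the size of its gap. The pairs and their direction were also taken from the means of these same 6 libraries, so the test does not decide the order. The remaining 4 neighbouring pairs, *Prph* and *Dpysl3*, *Tubb2b* and *Stmn1*, *Stmn1* and *Tubb3*, and *Tubb3* and *Gap43*, changed order in at least 1 library and did not differ beyond their spread, with exact permutation p from 0.0625 to 0.6875.

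**Figure D3:**
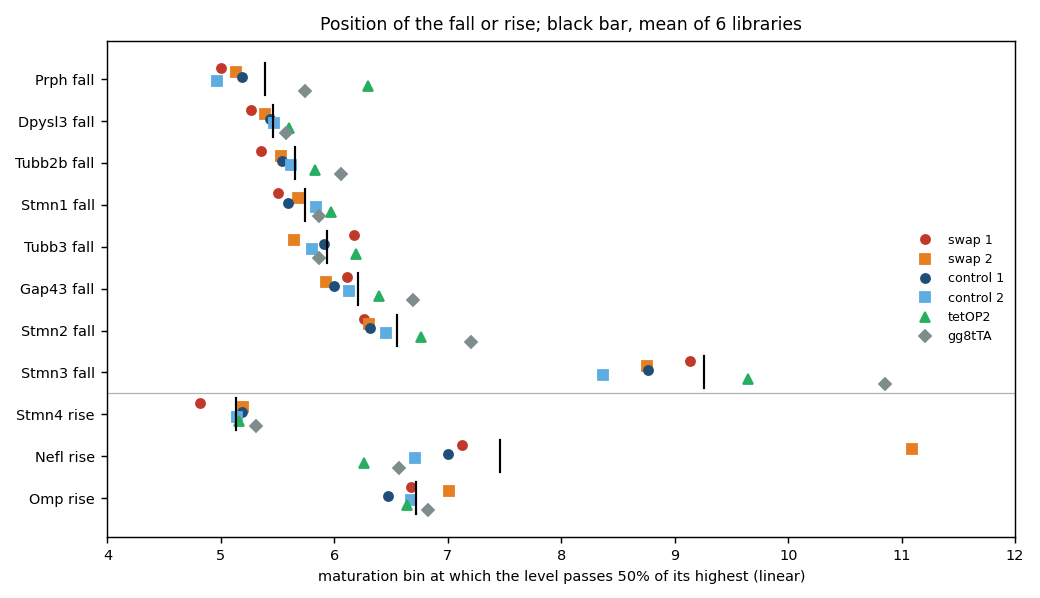
Maturation bin at which each member passes 50% of its highest level (linear axis), on the fall for 8 members and on the rise for *Stmn4*, *Nefl* and *Omp*, with 1 point per library and a black bar at the mean of 6 libraries. *Stmn3* stands at 9.25, apart from the 7 members between 5.39 and 6.55.

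No difference between swap and control libraries was detectable in where the members fell. The mean fall position over the 8 falling members was 6.10 and 6.05 bins in swap and 6.09 and 6.08 bins in control libraries, a difference of -0.012 bins with an exact permutation p of 1, where 2 against 2 libraries allow no p below 0.333. That mean joins members with opposite signs. The difference was 0.38 bins for *Stmn3* and 0.051 for *Tubb3*, and from -0.132 to -0.0063 for the other falling members. For 3 of the 8 members, *Stmn2*, *Dpysl3* and *Tubb2b*, the 2 swap values lay below the 2 control values, by 0.098 to 0.132 bins, and among 1571 other genes with a fall the positions of the 2 genotypes did not overlap for 32.1%. *Gap43* fell at 6.11 and 5.92 bins in swap and at 5.999 and 6.13 bins in control. The 2 genotypes were thus interleaved for the gene that marks the step. On the rise, both swap values lay above both control values for *Nefl*, at 7.125 and 11.09 against 7.006 and 6.708 bins. The same held for *Omp*, at 6.675 and 7.014 against 6.47 and 6.673 bins. Each had an exact permutation p of 0.333, and the values overlapped for *Stmn3*, *Stmn4*, *Gap43* and *Prph*.

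Within stages, 0 of the 9 members tested in INP cells, 0 of 10 in immature OSNs and 0 of 10 in mature OSNs passed the test between swap and control, with *Nefl* too low for testing in INP cells (edgeR quasi-likelihood, Benjamini-Hochberg adjusted p below 0.05 and an absolute log2 fold change above 0.58). The test passed 0.0314% of all genes in INP cells, 0.0335% in immature OSNs (0.00839% higher and 0.0252% lower in swap) and 0% in mature OSNs, so few genes of any kind passed. In mature OSNs even *Cbx1*, which the swap removes by design, thus did not pass, though its levels given above were far apart. The absence of members there therefore says little. At an unadjusted p below 0.05 there were 2 members in INP cells and 0 in the other stages, against 193, 269 and 316 genes in all. With 2 libraries a group, p-values rest on the spread between these libraries, which the study's methods call biological replicates. DESeq2 passed 0 members in each stage as well, with 178 genes passing in all in mature OSNs. On simulated counts the edgeR test recovered 24%, 14% and 11% of genes changed by a log2 of 1 in INP cells, immature and mature OSNs. For a log2 of 2 it recovered 80%, 76% and 51%. The changed genes were drawn at random from all genes tested, so these shares are not those of the members themselves. The shares hold for the simulated counts only. Whether those counts spread between libraries as the measured ones do was not tested. With *Cbx1* not passing in mature OSNs, the shares are not read as what the test recovers from the measured counts. A member that did not pass may still differ, by 2-fold where its standard error is wide.

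Those 2 were *Stmn4* and *Prph* in INP cells. *Stmn4* was at 50.3 and 31.2 CPM in swap and 16.6 and 16.2 CPM in control libraries, with 31.8 and 24.6 CPM in *tetOP2* and *gg8tTA*. The swap values lay above the control values but were reached by the *tetOP2* library, and the log2 fold change was 1.31 ± 0.33 (SE, edgeR adjusted p = 0.713). The call depended on the setting, as the edgeR adjusted p was 0.0429 without a filter on low counts, 0.0471 with the replicate number as a block and 0.0211 without swap 2, where the log2 fold change was 1.62. *Prph* was at 20.3 and 15.6 CPM in swap and 30.2 and 29.6 CPM in control libraries, a log2 fold change of -0.73 ± 0.32 (edgeR adjusted p = 0.999) that turned to 0.39 when the stages were named by their best marker list alone.

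For *Gap43* the swap libraries were at 128 and 161 CPM in INP cells against 94.5 and 123 CPM in control, a log2 fold change of 0.43 ± 0.24 (SE, edgeR adjusted p = 0.999). In immature OSNs they were at 2199 and 2296 against 2399 and 2542 CPM, a log2 fold change of -0.15 ± 0.18 (edgeR adjusted p = 1.00). Neither stage overlapped between genotypes, and neither passed. For *Nefl* the values were 4.13 and 2.74 against 5.44 and 5.66 CPM in immature OSNs, and 20.1 and 18.1 against 16.3 and 14.3 CPM in mature OSNs, with log2 fold changes of -0.69 ± 0.41 and 0.29 ± 0.25 (edgeR adjusted p = 1.00 for both). Levels that did not overlap between genotypes were counted for 4 of the 9 members tested in INP cells, 3 of 10 in immature and 1 of 10 in mature OSNs, against 23.1%, 21.3% and 18.6% of all genes tested.

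Libraries with the same replicate number also resembled each other. In mature OSNs both libraries numbered 1 were above both libraries numbered 2 for 9 of 10 members, with *Nefl* the exception, against 30.8% of all genes tested. In immature OSNs this held for 6 of 10 members against 26.9% of all genes, and in INP cells for 4 of the 9 tested against 23.8%. *Tubb3* in mature OSNs was at 794 and 603 CPM in swap 1 and control 1, and at 411 and 358 CPM in swap 2 and control 2. *Prph* was at 63.2 and 33.8 against 14.2 and 14.0 CPM. The libraries numbered 1 also had the lower mature share of the lineage, given above, and its part in these levels was not tested.

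The *tetOP2* and *gg8tTA* libraries, 1 of each, allow no test of genotype, and ratios are given with an interval that covers counting error only. In mature OSNs *Gap43* was at 237 CPM in *tetOP2* and 334 CPM in *gg8tTA*, a ratio of 0.708 (0.665 to 0.753). *Stmn2* had a ratio of 0.859 (0.830 to 0.889) and *Nefl*, with 109 and 69 UMIs, a ratio of 1.62 (1.19 to 2.23). *Gap43* by bin was at 1838 and 1829 CPM in bin 6, 690 and 1040.3 CPM in bin 7 and 407 and 447 CPM in bin 8, so the gap was widest in bin 7. In immature OSNs the ratio for *Gap43* was 1.05 (1.02 to 1.07), and the widest was that of *Dpysl3*, 1.24 (1.21 to 1.28).

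Levels in these 2 libraries stood apart from those of the swap and control libraries for some members, among them *Tubb3* in INP cells and *Prph* in mature OSNs, given above. The 5 sustentacular markers summed to 336 to 391.9 CPM in their immature and mature OSNs and to 61.0 to 121 CPM in those of the swap and control libraries. The mouse line and the library cannot be told apart here, and the part of these RNAs in the levels was not tested. *Tubb3* itself was seen in 8.97% of sustentacular cells, thinned.

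OSNs of the dorsal MOE express *Nqo1*, and mature OSNs with at least 1 *Nqo1* UMI were compared with those without any, within each library. *Nefl* was at 9.85, 3.14, 2.84, 1.13, 7.51 and 5.63 CPM in cells with *Nqo1* and at 27.1, 27.9, 24.2, 21.0, 19.4 and 12.5 CPM in cells without it, in swap 1, swap 2, control 1, control 2, *tetOP2* and *gg8tTA*. Every library had less in cells with *Nqo1*, with 106 UMIs against 899 in all, and the ranges did not overlap. The log2 fold change was -2.28 ± 0.37 (SE, edgeR with library as a block, adjusted p = 0.00324). *Nefl* was the 1 member of 10 that passed, while 7.13% of all genes did, 4.30% lower and 2.84% higher in cells with *Nqo1*.

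The lower *Nefl* held at a stricter gate of at least 2 *Nqo1* UMIs, in the later mature cells alone and after thinning, with log2 fold changes of -2.71, -2.30 and -2.72, and it passed in each of the 6 fits that left out 1 library. Median depth was 10909 to 12014 UMIs in cells with *Nqo1* and 11475 to 13428 in those without. The mean maturation score was lower in cells with *Nqo1* in 5 of 6 libraries, swap 1 being the exception, with 0.889 to 1.17 against 0.886 to 1.23, and its part in these differences was not tested beyond the fit on later mature cells. *Tubb2b* was higher in cells with *Nqo1* in 6 of 6 libraries, with a mean of 250 ± 92.7 against 178 ± 60.4 CPM (SD, n = 6), a log2 fold change of 0.51 ± 0.06 (edgeR adjusted p = 0.000449) that lay under the fold limit and was also 0.51 among the later mature cells. *Prph* was higher in 5 of 6, by 0.39 ± 0.10 (edgeR adjusted p = 0.0274), also under the limit, and its adjusted p was 0.331 among the later mature cells.

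Of 51 other cytoskeleton genes tested in that comparison, 3 passed as lower and 2 as higher. The lower ones were the neurofilament gene *Nefm*, with a log2 fold change of -2.80 ± 0.60 (SE, edgeR adjusted p = 0.017) from 5 UMIs against 65, the intermediate filament gene *Ina* (internexin), with -0.86 ± 0.14 (adjusted p = 0.00285), and the doublecortin-like kinase gene *Dclk1*, with -0.86 ± 0.18 (adjusted p = 0.011). *Ina* and *Dclk1* were lower in 6 of 6 libraries, at 11.6 against 20.8 CPM and at 22.5 against 40.0 CPM on average, and *Nefm* in 5 of 6, with reads that its overlap with *Nefl* may mix. The higher ones were *Dpysl4*, another collapsin response mediator, with 0.89 ± 0.19 (edgeR adjusted p = 0.0116), and *Map4*, a microtubule-binding protein, with 0.65 ± 0.13 (adjusted p = 0.01).

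**Figure D4:**
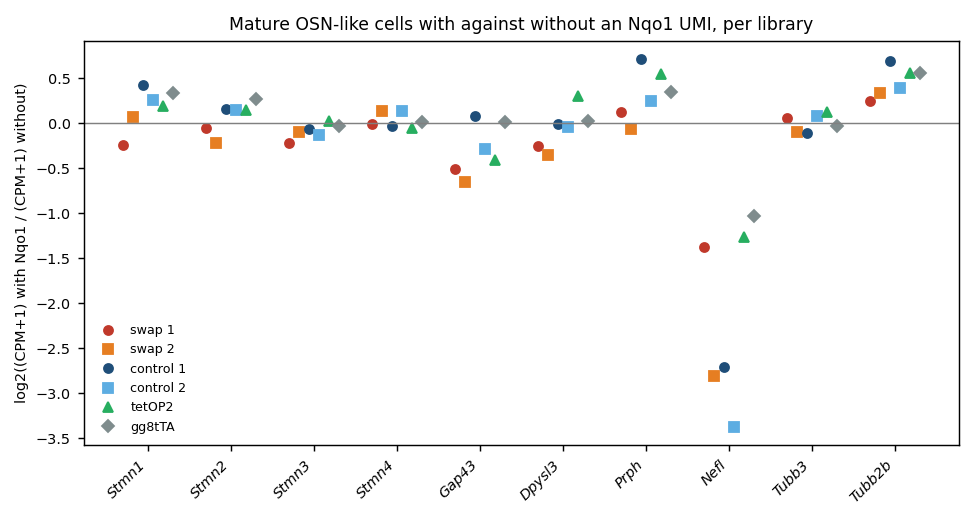
Log2 ratio of the level (CPM + 1) in mature OSNs with an *Nqo1* UMI to that in mature OSNs without one, for each member, with 1 point per library and a line at 0. All 6 libraries lie below 0 for *Nefl* and above 0 for *Tubb2b*.

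Whether this contrast differed between swap and control was tested as an interaction, and 0 of 10 members passed, against 0.257% of all genes, 0.0514% higher and 0.206% lower in swap. At an unadjusted p below 0.05 there were 5 of the 10 members and 555 of 11676 genes in all, with *Stmn2* at -0.29 ± 0.06 (log2, SE, edgeR adjusted p = 0.393), *Stmn1* at -0.43 ± 0.10 (adjusted p = 0.555) and *Gap43* at -0.49 ± 0.12 (adjusted p = 0.593). The other members among these were *Tubb2b* at -0.27 ± 0.10 and *Prph* at -0.49 ± 0.19 (edgeR adjusted p = 1.00 for both). *Gap43* in cells with and without *Nqo1* was at 284 and 405 CPM in swap 1, 150.0 and 237 CPM in swap 2, 285 and 270.2 CPM in control 1 and 174 and 213 CPM in control 2. Both swap libraries had less in cells with *Nqo1*, as did control 2, whereas control 1 had slightly more. The mean maturation score with and without *Nqo1* was 0.899 and 0.886 in swap 1 and 1.13 and 1.17 in swap 2. It was 0.889 and 1.00 in control 1 and 1.17 and 1.23 in control 2, so the score gap was wider in the controls. Its part in the interaction was not tested beyond a fit on later mature cells, where 0 of 10 members passed. Leaving out 1 library changed 2 calls, as *Gap43* passed without control 2, with -0.68 (edgeR adjusted p = 1.36e-05), and *Stmn1* passed without swap 2, with -0.59 (edgeR adjusted p = 0.0152).

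Finally, the genes whose profile over the 12 bins of the 6 libraries was most like that of each member were listed by Pearson correlation of log2(CPM + 1) over 72 points, which share libraries and bins, among 6372 genes with a mean of at least 20 CPM. For *Stmn1* these were *Vim*, *Tmsb10* and *Fabp5* (r from 0.979 to 0.986), for *Dpysl3* *Vim*, *Fabp5* and *Basp1* (0.973 to 0.984), and for *Tubb2b* *Tmsb10*, *Vim* and *Tubb5* (0.975 to 0.991). For *Stmn2* they were *Bzw2*, *Arhgdig* and *Basp1* (0.961 to 0.973), and for *Tubb3* *Ptov1*, *Eif4a1* and *Actg1* (0.945 to 0.9499). *Vim*, which encodes the intermediate filament vimentin, was thus in 3 of the lists.

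The later members had other neighbours. They were *Ly6h*, *Sub1* and *Gm4285* for *Stmn3* (0.924 to 0.961), *Igsf8*, *Rtp2* and *1110017D15Rik* for *Stmn4* (0.958 to 0.963), and *Nap1l5*, *Pcolce2* and *Ppp2r2c* for *Nefl* (0.917 to 0.932). *Rtp2* encodes a chaperone of olfactory receptors. The list for *Gap43* held *Dkkl1*, *Ogfrl1* and *Fam13c* (0.912 to 0.929) and that for *Prph* *Hcfc1r1*, *Ppp1ca* and *Necab2* (0.888 to 0.920). Among the members themselves the correlation was 0.989 for *Stmn1* with *Dpysl3* and with *Tubb2b*, and -0.79 for *Stmn1* with *Nefl*.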

How the data were processed

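Single-cell RNA-seq of the MOE was analyzed from 6 libraries (2 swap, 2 control, 1 *tetOP2*, 1 *gg8tTA*), grouped by their labels. The authors deposited UMI counts per gene and cell, which they made with Cell Ranger (3.1.0 per the file headers of the swap and control libraries) with introns included and without normalization, after papain dissociation. The submitters' processing notes name the build mm10. The design text speaks of sorted cells and the methods of dissociated epithelium. The strand setting of the counting is not given in the sources used here. Counting introns adds unspliced RNA to every level. The libraries share at most 20 cell barcodes per pair.

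Barcodes below 1000 UMIs or 500 genes were dropped, which left 57.5% of the barcodes of control 2 and 84.4% to 100% of the others. Doublets were called as the cells with the most simulated doublets among their neighbours, at 0.8% per 1000 cells (53 to 207 per library), and removed. The swap and control libraries and the other line were clustered separately (2000 variable genes without olfactory receptor genes, members and other cytoskeleton genes, 30 principal components, 15 neighbours, Leiden resolution 1.5). Diffusion pseudotime, an alternative to the maturation score, was made with scanpy 1.11.5. Clusters were named from marker lists, and INP clusters also had to hold *Neurod1* in 20% of their cells, a condition set once the clusters were known, so stages are cells that resemble a type. Lineage clusters took the lineage list with the highest score (at least 0.4) even where their 10 leading genes held more markers of a neighbouring stage. These were 3 clusters counted as immature OSNs, with 723 cells in the swap and control libraries and 232 and 179 in the other line, where *Sox11* of the INP list and no marker of their own was among these genes, and 1 INP cluster of 87 cells in the other line. The cluster of 723 cells matched the INP list best but held *Neurod1* in 1.11% of its cells, as did a cluster of 101 cells in the other line with 12.9%. Bins were cut so that each library had equal weight.

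UMIs were summed per library and stage and given as CPM. Log2 differences used log2(CPM + 1). Tests used edgeR 4.0.16 (quasi-likelihood, TMM, filterByExpr, R 4.3.3), tested on simulated data, with DESeq2 1.42.0 and limma 3.58.1 as alternatives, and adjusted p-values were taken over all genes tested. Correlations and counts over genes are descriptions. Intervals (exact, 95%) cover counting error only.

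The text names the 10 members, *Neurod1*, *Omp*, *Cbx1* and *Cbx5*, the 3 most alike genes of each member, and other cytoskeleton genes that passed a test. The members and lists were chosen with earlier results of these data known. Part of the genotype labels is not reported here. Coordinates are from GENCODE M21 and promoter sequences from RefSeq, both of GRCm38.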

Additional observations from a re-analysis of the deposited data

Results flagged for a closer look

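Small clusters with *Gad1*, a gene of GABAergic neurons, among their 10 leading genes, and *Meg3* as the first, were given no stage and entered none of the comparisons. Their 119 cells over 6 libraries held *Prph* at 734.6 CPM and *Nefl* at 146.9 CPM. The values rested on few cells and on control 1, which gave 624 of the 715 *Prph* UMIs, and without it the other 88 cells held *Prph* at 130.03 CPM and *Nefl* at 72.9 CPM. *Prph* was at 2281 CPM in control 1 (31 cells), 298 CPM in *tetOP2* (15 cells) and 511 CPM in *gg8tTA* (5 cells), and had 1 UMI each in swap 1 (4 cells), swap 2 (44 cells) and control 2 (20 cells). *Nefl* was at 661 CPM in swap 1 (25 UMIs), 44.5 CPM in swap 2, 336 CPM in control 1, 77.4 CPM in control 2 and 14.9 CPM in *tetOP2* (2 UMIs), and at 0 of 93843 UMIs in *gg8tTA*, where 3 UMIs would be 32.0 CPM. *Gad1* was also at 0 in *gg8tTA*, and *Omp* was at 1014 CPM in *tetOP2* and 1215 CPM in *gg8tTA*, so the label of the clusters does not hold for each library. Which cells these are was not tested.

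*Gap43* was higher in both swap libraries than in both controls in INP cells, by a log2 ratio of the means of 0.412, and lower in both in immature OSNs, but with equal weight over maturation bins the log2 fold change in INP cells was -0.10. *Nefl* was higher in both swap libraries in mature OSNs, by a log2 ratio of 0.322, and lower in both in immature OSNs. Neither difference between stages was tested.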

How the results depend on the processing

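*Nefl* in the *Nqo1* comparison passed under all alternatives run, without the library block included, while that setting took the genes passing from 878 to 100. Between swap and control, the members that passed in INP cells went from 0 to 1 (*Stmn4*) without a filter on low counts and with the replicate block, and were 0 to 1 when 1 library was left out. Members passing the interaction were also 0 to 1 when 1 library was left out. Members passing stayed at 0 in immature and mature OSNs under all alternatives run. Libraries with the same replicate number deviated together (r across genes 0.37 in INP cells, 0.31 in immature and 0.25 in mature OSNs), but with 2 pairs they share only a number. In the order of fall positions, the neighbouring pairs in 1 order in every library went from 3 of 7 to 5 with 8 bins. The first place also changed. *Dpysl3* had an earlier mean fall than *Prph* with 8 bins (5.40 against 5.49) and after thinning (5.42 against 5.49). It was also earlier at 30% of the highest level (5.93 against 6.46). *Prph* was the earlier at 70%, with 16 bins and along diffusion pseudotime. The place of *Tubb3* was not stable either. Its mean fall went from 5.93 to 6.88 with 8 bins, where 1 library was at 10.55 and *Gap43* and *Stmn2* fell at 6.39 and 6.65. At 30% of the highest level it was 9.65 in 5 libraries, and *Stmn3* had no fall. The swap minus control fall position went from -0.012 to -0.12 bins at 70% of the highest level, 0.18 with 8 bins, -0.062 with 16 bins, -0.20 along diffusion pseudotime and 0.020 after thinning. With 8 bins it was 1.90 for *Tubb3* and from -0.21 for *Stmn1* to 0.14 for *Stmn3* among the other falling members, so that mean is not a shift of the set. Along diffusion pseudotime it was negative for every falling member, from -0.48 for *Stmn3* to -0.015 for *Tubb3*. After thinning it ran from -0.18 for *Prph* to 0.26 for *Tubb3*. The cause of these changes was not tested.

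Genes passing in all went from 3 in INP cells to 66 without a filter, 26 with the block and 30 to 51 without 1 library. In immature OSNs they went from 4 to 70 with DESeq2, 34 without a filter, 64 with the block, 8 with equal weight over bins (limma), 14 with stages named before the *Neurod1* rule, 7 with UMI gates and 112 to 256 without 1 library, and in mature OSNs from 0 to 178, 80 and 42 with DESeq2, no filter and equal weight, and 199 to 215 without 1 library. For the *Nqo1* comparison DESeq2 gave 475 and later mature cells 576, and for the interaction leaving out 1 library gave 63 to 82, against 30. A lone library left in a group was assumed to vary like those of the other group. Leaving out the clusters with more markers of a neighbouring stage gave 14 genes in immature OSNs and changed no member's call. This setting, stages named before the *Neurod1* rule and all alternatives to the interaction were chosen after seeing the data.

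No member's log2 difference from immature to mature OSNs changed sign, but with UMI gates for the stages it was -2.36 for *Stmn1*, -1.50 for *Stmn2*, -0.20 for *Stmn3*, 1.61 for *Stmn4*, -1.66 for *Gap43*, -2.91 for *Dpysl3* and -2.55 for *Tubb2b*. Without the clusters with more markers of a neighbouring stage it was -0.85 for *Stmn3*, and the other 9 moved by less than their SD over libraries.

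Log2 fold changes that changed sign were all of members that had not passed. In INP cells these were *Gap43* (-0.10) and *Tubb2b* (-0.016) with equal weight over bins, *Prph* with UMI gates (0.011) and with stages named before the *Neurod1* rule (0.39), and *Dpysl3* with the latter (0.097). In mature OSNs they were *Gap43* (-0.062) and *Tubb2b* (-0.0053) with equal weight and *Stmn1* (0.12) and *Stmn2* (0.061) with UMI gates. For the *Nqo1* comparison they were *Stmn2* (-0.0057) and *Stmn4* (-0.0093) in later mature cells. For the interaction they were *Dpysl3* (0.13) and *Tubb3* (0.078) after thinning, *Tubb3* at 2 *Nqo1* UMIs (0.012) and *Tubb2b* in later mature cells (0.080).

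Leaving out 1 library at a time changed the sign for more members. In INP cells the ranges were -0.20 to 0.14 for *Dpysl3*, -0.013 to 0.25 for *Stmn1*, -0.088 to 0.23 for *Stmn3*, -0.23 to 0.40 for *Tubb2b* and -0.26 to 0.43 for *Tubb3*. In immature OSNs they were -0.058 to 0.24 for *Dpysl3*, -0.16 to 0.22 for *Prph*, -0.23 to 0.049 for *Stmn1*, -0.25 to 0.014 for *Stmn2*, -0.40 to 0.046 for *Stmn3*, -0.35 to 0.44 for *Stmn4*, -0.27 to 0.37 for *Tubb2b* and -0.34 to 0.45 for *Tubb3*. In mature OSNs they were -0.24 to 0.66 for *Dpysl3*, -0.25 to 0.54 for *Gap43*, -0.78 to 1.47 for *Prph*, -0.54 to 0.10 for *Stmn1*, -0.46 to 0.30 for *Stmn2*, -0.39 to 0.22 for *Stmn3*, -0.10 to 0.16 for *Stmn4*, -0.47 to 0.77 for *Tubb2b* and -0.25 to 0.77 for *Tubb3*. For the *Nqo1* comparison the range was -0.099 to 0.030 for *Dpysl3*, and for the interaction -0.070 to 0.077 for *Stmn4* and -0.088 to 0.077 for *Tubb3*.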
